A study of Homo sapiens with 6 samples.

Results

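Interferon-stimulated and class I antigen presentation genes were examined in MDA-MB-231 cells, an established human triple-negative breast cancer line, treated with riluzole at 25 µM or with the solvent DMSO (vehicle). Riluzole is a drug for amyotrophic lateral sclerosis that lowers glutamate release. The members were 57 genes given as a list of symbols, out of 30818 gene names on the array: 42 antiviral interferon targets and 15 genes of HLA class I and peptide loading. Each treatment had 3 samples, read on 1 single-colour Illumina bead array each, and the sample labels give 24 hours of treatment where the series title says overnight. Both groups were the same line grown in RPMI with serum, and the labels name no added interferon. The labels do not say whether the samples of a group were separate cultures, so a p-value here measures only how these samples varied, and that variation may be technical. In such bulk RNA, fewer expressing cells and less RNA per cell cannot be told apart.

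Type I interferons bind a receptor pair whose kinases activate a complex of STAT2, IRF9 and a partner STAT. That complex binds the interferon-stimulated response element (ISRE) and switches on antiviral genes, many of which block viral RNA or protein synthesis. Interferon gamma acts mainly through the gamma-activated site (GAS) and through IRF1, and induces class I chains, the TAP transporter and the immunoproteasome, which together supply peptides to T cells. Cancer lines can express these genes without added interferon.

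None of the 54 members that could be tested passed the adjusted threshold, where 1.18% of all 14887 genes tested did, 0.752% as higher and 0.43% as lower with riluzole (limma, Benjamini-Hochberg adjusted p under 0.05 over all genes). An unadjusted p under 0.05 was reached by 4 members, which is 7.41% of them, beside 16.3% of all genes. These 4 were ISG20, IRF7 and HLA-B, with positive log2 fold changes, and IFIT5, with a negative one. The smallest adjusted p of any member was 0.127. Fold changes are riluzole over vehicle on background-corrected log2 intensities, to which an offset of 16 had been added, and this offset draws the folds of dim probes toward 1. The intervals rest on the same variation between samples, so if that was technical they leave out the variation between cultures. In 47 of the 54 members (87.0%) the 95% interval of the fold change lay within 1.5-fold either way, against 71.8% of all genes. In all 54 it lay within 2-fold. Whether signal strength plays a part in the contrast with all genes was not tested. The 7 members whose interval reached past 1.5-fold were ISG20, IRF7, IFIT5, OAS1, RSAD2, HLA-B and NLRC5. A missed threshold does not show that a gene was unaltered.

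**Figure D1:**
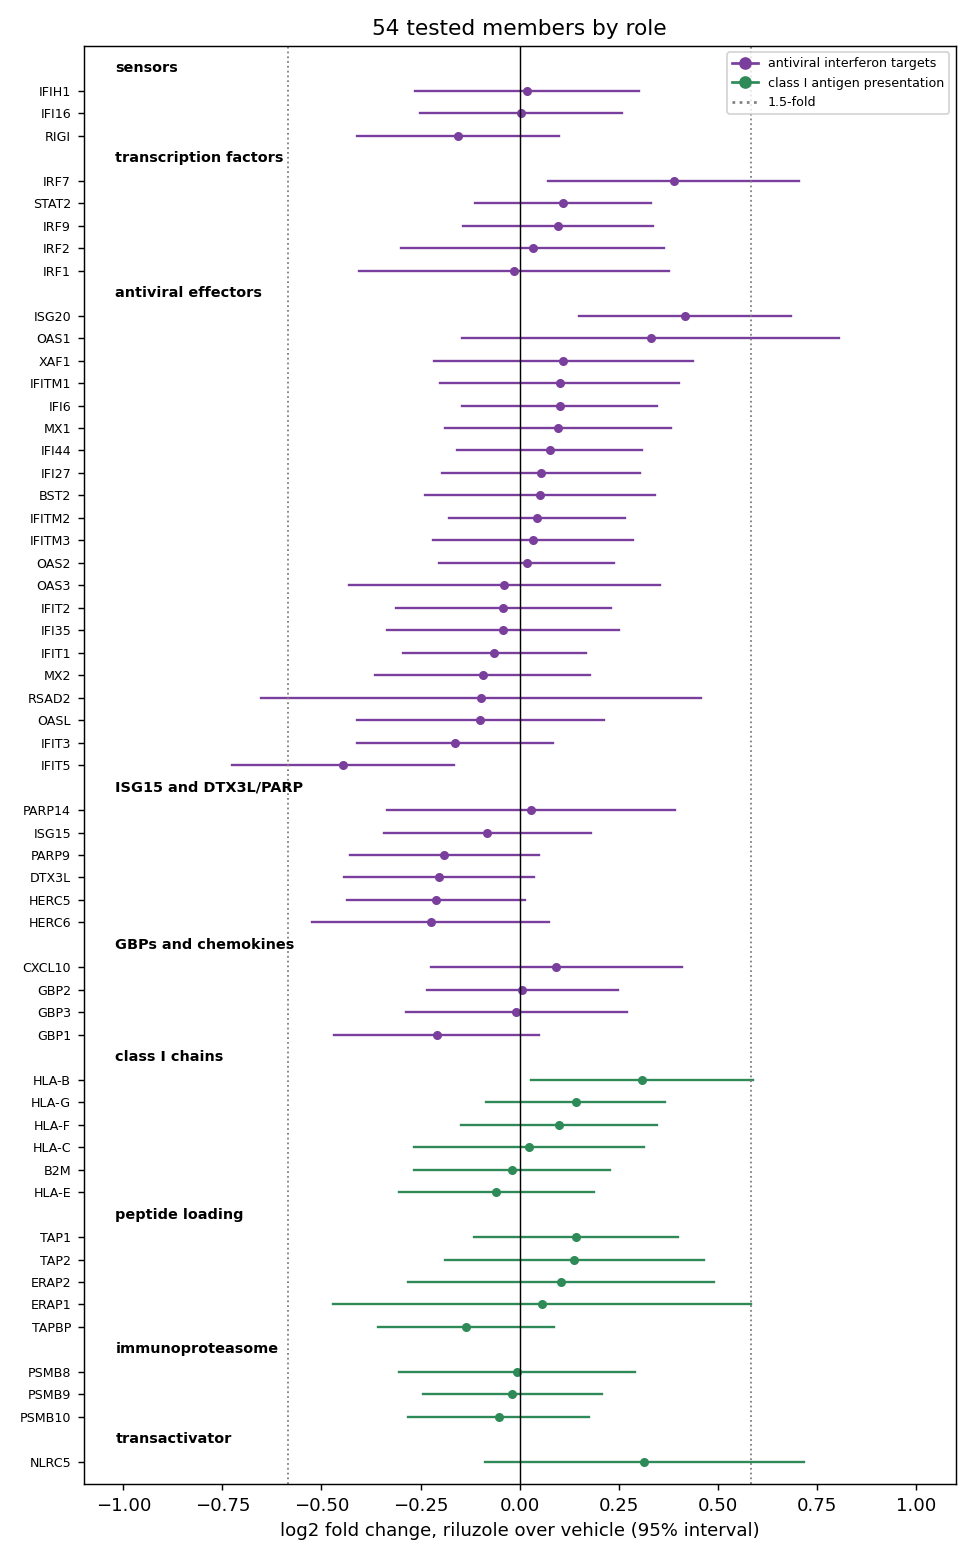
Log2 fold change (riluzole over vehicle, x axis) of the 54 tested members, in rows grouped by role, with bars for the 95% interval of the limma fit. Purple marks antiviral interferon targets and green marks class I antigen presentation genes. The dotted lines stand at 1.5-fold, and 47 of the 54 intervals lie between them.

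Measured per array, 52 of the 54 tested members were detected on all 6 arrays. Detection means a signal above nearly all negative control probes of the array (detection p under 0.05). The exceptions were RSAD2, an antiviral radical SAM enzyme, detected on 3 riluzole arrays and 2 vehicle arrays, and NLRC5, the class I transactivator, detected on 2 riluzole arrays and 1 vehicle array. The other 3 members, IFI44L, USP18 and CXCL11, missed the detection rule and have no test. No probe of IFI44L or of the chemokine CXCL11 was detected on any array. USP18, which removes ISG15 from proteins and dampens the interferon receptor, had raw signals of 121, 128 and 139 on the riluzole arrays, against 152, 147 and 129 on the vehicle arrays. It was detected on 0 riluzole arrays and 2 vehicle arrays. With no detection filter the log2 fold change of USP18 was -0.31 (95% interval -0.66 to 0.04, limma adjusted p = 0.530). In the same fit IFI44L had -0.33 (adjusted p = 0.556) and CXCL11 had 0.068 (adjusted p = 0.903). These values rest on signals near the negative controls, so they do not measure the size of a change.

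Most of these genes with a promoter window in the reference carry an ISRE match. The RefSeq promoter table of GRCh38.p14 held a window of 250 bases before to 50 bases after the start for 46 of the 57 members. The ISRE, searched as GAAA, any 2 bases and GAAA on either strand, was present for 32 of those 46 (69.6%), and for 4.38% of the 27305 genes in the table. The GAS, searched as TTC, any 3 bases and GAA, which reads the same on both strands, was present for 13 of 46 (28.3%), and for 9.38% of the genes in the table. Matches of the ISRE and of the GAS shared bases in 4 members, MX1, IFITM1, BST2 and IFI27. A match describes the letters of the window and shows no binding. The following stretches of GRCh38.p14 are written 5′ to 3′ along each gene's own strand, with every ISRE match that lies whole within the stretch, or its reverse complement, in capitals. The ISG15, B2M and TAP1 stretches each hold 2 overlapping matches, so their capitals run longer. IFIT5 has 3 matches, of which the last, reaching across the start, is shown whole, and MX1 has a second match in another of its windows. They come from the windows of members at both ends of the fold changes (ISG20 and IFIT5), of ISG15 and MX1 as classical targets, and of class I genes (B2M, TAP1, PSMB8).
ISG20, chr15:88638937-88638966, plus strand: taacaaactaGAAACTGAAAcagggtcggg
IFIT5, chr10:89414554-89414583, plus strand: atttcttaagTTTCAGTTTCtgagcgctcg
ISG15, chr1:1013380-1013409, plus strand: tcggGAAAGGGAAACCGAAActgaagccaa
MX1, chr21:41420559-41420588, plus strand: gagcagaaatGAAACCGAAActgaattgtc
B2M, chr15:44711369-44711398, plus strand: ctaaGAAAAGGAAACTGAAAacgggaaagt
TAP1, chr6:32853813-32853842, minus strand: ccgcTTTCGATTTCGCTTTCccctaaatgg
PSMB8, chr6:32844032-32844061, minus strand: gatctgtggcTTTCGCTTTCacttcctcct

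The 31 tested members with an ISRE match had a median log2 fold change of 0.020, 16 positive and 15 negative. The 13 tested members whose windows held no such letters had a median of 0.023, 8 positive and 5 negative. ISG20 and IFIT5, the extremes of the member list at 0.42 and -0.45, both carry the motif, as do 69.6% of the members with a window. OAS1, at 0.33, has no ISRE match. HLA-B, HLA-C and HLA-G were among the 9 members whose windows held neither motif. The whole ISG20 window is given because that gene alone was called under any alternative, with its single ISRE match in capitals (GRCh38.p14, chr15:88638766-88639065, plus strand).
ISG20 promoter: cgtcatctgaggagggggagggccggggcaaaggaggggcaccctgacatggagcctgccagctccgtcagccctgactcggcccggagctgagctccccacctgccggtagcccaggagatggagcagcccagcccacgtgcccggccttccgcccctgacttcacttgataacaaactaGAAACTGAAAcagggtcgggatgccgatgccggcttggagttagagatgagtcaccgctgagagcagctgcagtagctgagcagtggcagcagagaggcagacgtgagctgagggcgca

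Upstream of the members, none of the listed interferon transcripts was detected. The list of 9 ligand genes, of the alpha, beta, gamma, epsilon, kappa and lambda interferons, was read by 12 probes, and 0 of them were detected on any array. Their raw signals lay between 65.3 and 133, where negative control probes averaged 107 to 111 per array. All 8 genes of the list of receptors and their kinases were detected, with log2 fold changes between -0.40 and 0.25, and 0 passed in the limma fit, 1 at an unadjusted p under 0.05. Of 14 sensing adaptors and kinases 13 were tested and 0 passed, with a median of -0.050 and 2 at an unadjusted p under 0.05. Of 6 negative regulators 6 were tested and 0 passed or reached that unadjusted p.

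Among the sensors of viral nucleic acid, which start interferon production, 0 of 3 passed. RIGI, named DDX58 on the array and a sensor of uncapped RNA, had log2 levels of 8.25, 8.14 and 8.12 on the riluzole arrays, against 8.47, 8.31 and 8.19 on the vehicle arrays. The groups overlapped, and the log2 fold change was -0.16 (adjusted p = 0.549). IFIH1, the sensor of long RNA also called MDA5, had a log2 fold change of 0.020 ± 0.12 (SE), and IFI16, a DNA sensor, one of 0.0027 ± 0.11.

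The transcription factors of the response had 4 positive log2 fold changes and 1 negative, with 0 of 5 past the threshold. STAT2, a subunit of the activating complex, had log2 levels of 10.17, 10.30 and 10.19 with riluzole, against 10.14, 10.09 and 10.10 with vehicle. Every riluzole array lay above the vehicle arrays, by a margin smaller than the spread within the riluzole group, and the log2 fold change was 0.11 (95% interval -0.11 to 0.33, adjusted p = 0.644). Groups that did not overlap were found for 10 of 54 members (18.5%), where 22.7% of all genes had them. With riluzole, 4 of the 54 (7.41%) were higher without overlap, beside 11.8% of all genes, and 6 of the 54 (11.1%) were lower, beside 11% of all genes. Without riluzole replicate 2 the log2 fold change of STAT2 was 0.068. IRF9, the DNA-binding partner of STAT2, had levels of 10.19, 10.41 and 10.21 with riluzole, against 10.18, 10.14 and 10.20 with vehicle. Those groups overlapped, at a log2 fold change of 0.097 (adjusted p = 0.718), which was 0.028 without riluzole replicate 2.

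IRF7, the factor that amplifies type I interferon production, had levels of 9.65, 9.91 and 9.89 with riluzole, against 9.53, 9.19 and 9.57 with vehicle. The groups did not overlap, and the fold was 1.31 (95% interval 1.05 to 1.63, adjusted p = 0.210). Its second kept probe gave a log2 fold change of -0.088, opposite in sign to the 0.39 of the first, so the IRF7 difference rests on 1 probe, and the mean of both gave 0.15. IRF1, the factor that carries much of the interferon gamma response to class I genes, varied within both groups. Its levels were 10.42, 10.98 and 10.76 with riluzole, against 10.80, 10.49 and 10.91 with vehicle, a log2 fold change of -0.013 (95% interval -0.40 to 0.38). IRF2, which competes with IRF1 for its sites, had one of 0.033 (adjusted p = 0.950).

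Antiviral effectors made up the largest role group, and 0 of its 21 tested members passed, with a median log2 fold change of 0.034, 12 positive and 9 negative. ISG20, an exonuclease that degrades viral RNA, was the member with the largest positive value. Its levels were 10.25, 10.07 and 10.02 on the riluzole arrays, against 9.83, 9.67 and 9.58 on the vehicle arrays. All riluzole values lay above all vehicle values, and the fold was 1.33 (95% interval 1.11 to 1.61, adjusted p = 0.135). ISG20 is the only member called under any alternative tried: its adjusted p was 0.0462 without background correction, where 3.75% of all genes were called, and 0.0391 when limma's prior variance followed intensity and was robust, where 4.44% were. Over all 15 alternatives its log2 fold change ran from 0.35 to 0.48 and its adjusted p from 0.0391 to 0.279.

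IFIT5, of the family of proteins that bind viral RNA ends, had the largest negative value of the members. Its levels were 7.03, 6.94 and 7.08 with riluzole, against 7.62, 7.52 and 7.26 with vehicle. The groups did not overlap, the log2 fold change was -0.45 (95% interval -0.73 to -0.17), and the adjusted p was 0.127, running from 0.0682 to 0.265 over the alternatives. With no background correction it stood at -0.28 on the log2 scale. None of its 3 relatives on the list passed either. IFIT1, the best known of them, had levels of 11.59, 11.77 and 11.61 with riluzole, against 11.74, 11.70 and 11.72 with vehicle, and a change of -0.063 on the log2 scale (adjusted p = 0.823). IFIT2 had one of -0.041, and IFIT3 one of -0.16 on its brightest probe. The other kept IFIT3 probes gave -0.16 and -0.51, the last with an adjusted p of 0.114 over all probes.

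The oligoadenylate synthetases make the second messenger that activates RNase L, and none passed. OAS1 had levels of 7.39, 6.99 and 6.53 with riluzole, against 6.63, 6.81 and 6.48 with vehicle. Riluzole replicate 1 lay above the rest, and riluzole replicate 3 lay within the vehicle range, giving a log2 fold change of 0.33 (95% interval -0.15 to 0.81, adjusted p = 0.488). It was 0.12 without riluzole replicate 1, 0.55 without riluzole replicate 3 and 0.19 without background correction. OAS2, OAS3 and OASL had log2 fold changes of 0.018, -0.038 and -0.099. MX1, a dynamin-like GTPase that traps viral nucleocapsids, had levels of 10.19, 10.58 and 10.37 with riluzole, against 10.21, 10.34 and 10.30 with vehicle. The vehicle values lay inside the riluzole range, and the log2 fold change was 0.096 (adjusted p = 0.773). With 1 array left out it ran from -0.0055, without riluzole replicate 2, to 0.19, without riluzole replicate 1. MX2, which restricts retroviruses, had one of -0.093. Among membrane proteins that block viral entry or budding, the log2 fold changes were 0.10 for IFITM1, 0.045 for IFITM2, 0.034 for IFITM3 and 0.052 for BST2, the tetherin that holds virions at the surface. IFITM2 and IFITM3 are close in sequence, and whether their probes read each gene alone was not tested. RSAD2 had a log2 fold change of -0.098 with a wide 95% interval of -0.65 to 0.46. The remaining effectors were XAF1 at 0.11, a factor tied to cell death, and IFI6 at 0.10, IFI44 at 0.076, IFI27 at 0.054 and IFI35 at -0.042, all with groups that overlapped.

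**Figure D2:**
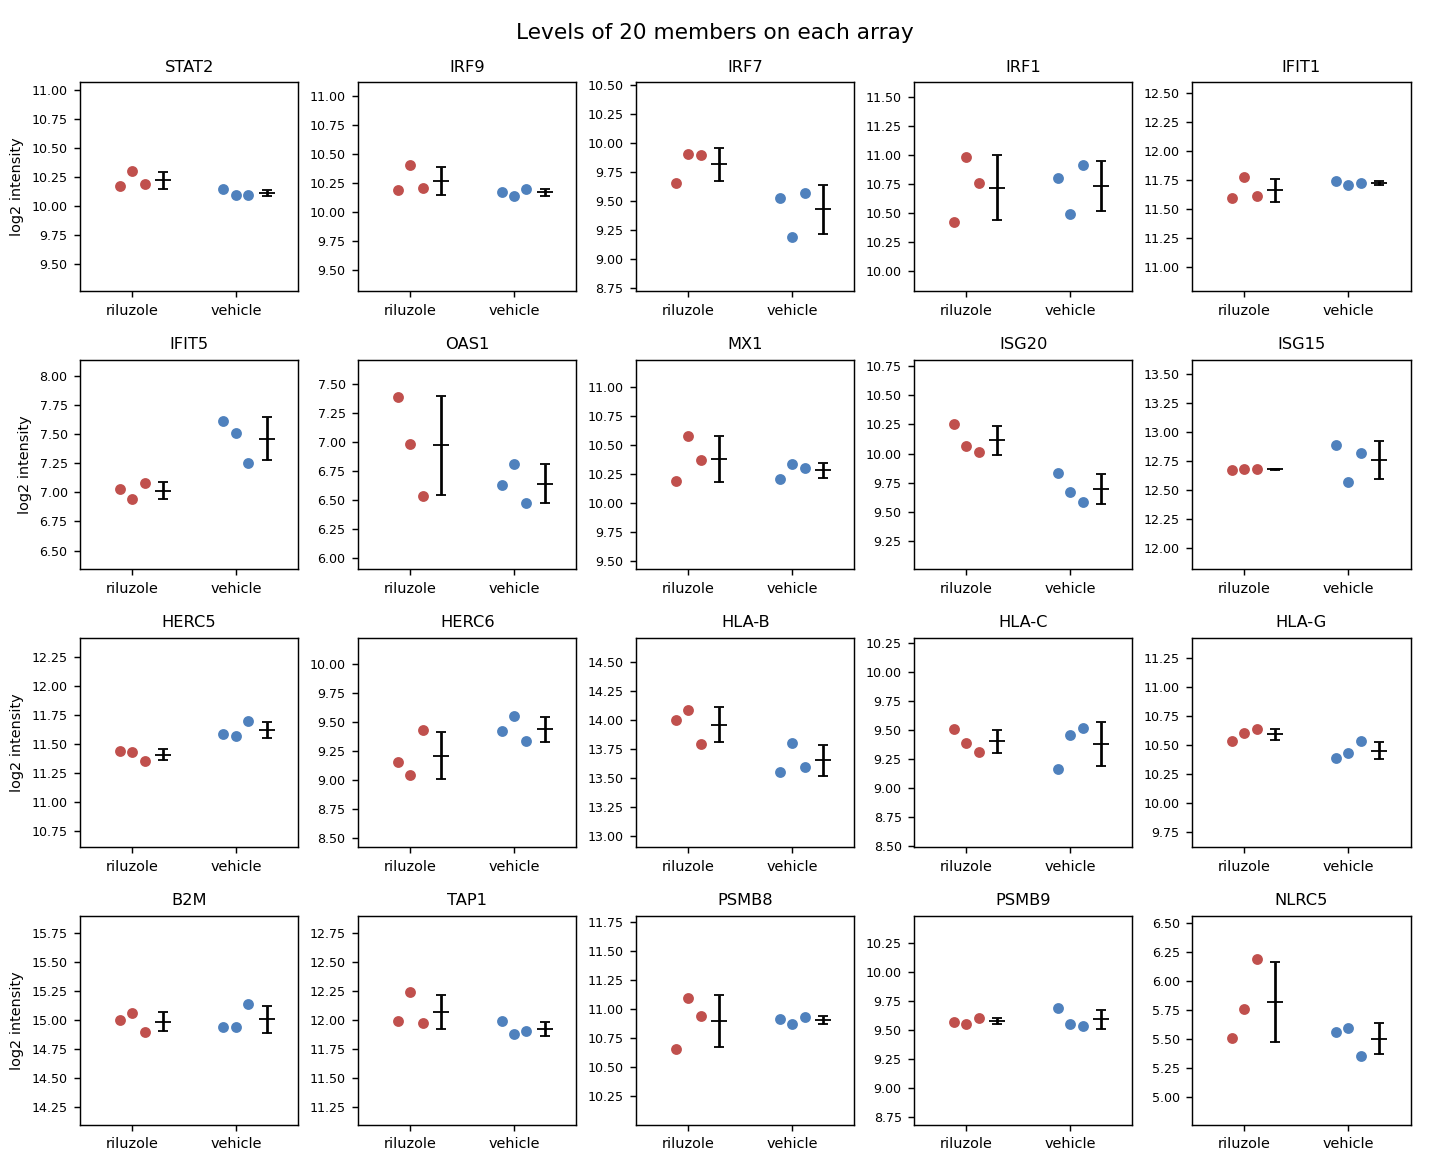
Background-corrected, quantile-normalized log2 intensity (y axis, 1.8 log2 units tall in each panel) of 20 members on the 3 riluzole arrays (red, left) and the 3 vehicle arrays (blue, right). Black marks are the mean and SD of 3 arrays. Groups separate in STAT2, IRF7, IFIT5, ISG20, HERC5 and HLA-G, and overlap in the other 14 panels.

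ISG15 is a ubiquitin-like protein that is joined to targets by HERC5 and taken off by USP18, and DTX3L with PARP9 forms a complex that modifies histones and viral proteins. In this role group 5 of 6 tested members had negative log2 fold changes, with a median of -0.20, and 0 passed in the limma fit or at an unadjusted p under 0.05. ISG15 itself had levels of 12.68, 12.68 and 12.68 with riluzole, against 12.89, 12.57 and 12.82 with vehicle. The riluzole arrays gave nearly the same value within the vehicle range, with a log2 fold change of -0.081 (adjusted p = 0.791), which was -0.018 without vehicle replicate 1 and -0.17 without vehicle replicate 2. HERC5, the main ISG15 ligase, had levels of 11.44, 11.42 and 11.35 with riluzole, against 11.58, 11.57 and 11.69 with vehicle. The groups did not overlap, and the log2 fold change was -0.21 (95% interval -0.44 to 0.014, adjusted p = 0.335). HERC6, a related ligase, had levels of 9.16, 9.04 and 9.44 with riluzole, against 9.43, 9.55 and 9.34 with vehicle. Those groups overlapped, at a log2 fold change of -0.22 (adjusted p = 0.451). It was -0.14 without riluzole replicate 2 and -0.34 without riluzole replicate 3.

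DTX3L and PARP9 lie head to head, and their windows hold the same ISRE letters read from opposite strands, at chr3:122564322-122564351 of GRCh38.p14.
DTX3L, plus strand: ccagggaagcGAAACTGAAActttgcgccc
PARP9, minus strand: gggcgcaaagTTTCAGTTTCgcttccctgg
DTX3L had levels of 6.72, 6.68 and 6.82 with riluzole, against 7.05, 6.88 and 6.89 with vehicle. PARP9 had 8.34, 8.43 and 8.29 with riluzole, against 8.64, 8.45 and 8.53 with vehicle. Neither pair of groups overlapped, the log2 fold changes were -0.20 and -0.19, and the adjusted p-values were 0.387 and 0.415. A second PARP9 probe gave 0.084, so the sign of PARP9 differs between its probes. PARP14, a further member of the family, had a log2 fold change of 0.029.

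The guanylate-binding proteins, GTPases that attack vacuoles of intracellular microbes, and CXCL10, a chemokine for T cells, gave 0 of 4 tested past the threshold or at an unadjusted p under 0.05. GBP1 had levels of 10.26, 10.34 and 10.15 with riluzole, against 10.37, 10.39 and 10.62 with vehicle. The groups did not overlap, by a narrow margin, and the log2 fold change was -0.21 (adjusted p = 0.412), while its second probe gave 0.0030. GBP2, GBP3 and CXCL10 had log2 fold changes of 0.0070, -0.0084 and 0.093.

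The class I chains present peptides at the cell surface together with B2M, their invariant light chain, and 0 of 6 genes passed. HLA-B had levels of 14.00, 14.09 and 13.80 with riluzole, against 13.56, 13.81 and 13.60 with vehicle. The groups overlapped only between riluzole replicate 3 and vehicle replicate 2, and the log2 fold change was 0.31 (95% interval 0.029 to 0.59, adjusted p = 0.259, running from 0.0770 to 0.484 over the alternatives). HLA-C, the ligand of many natural killer receptors, had levels of 9.50, 9.39 and 9.31 with riluzole, against 9.16, 9.46 and 9.52 with vehicle. Its riluzole values lay inside the vehicle range, at a log2 fold change of 0.023 (adjusted p = 0.960). HLA-G, a chain that inhibits immune cells, had levels of 10.535, 10.603 and 10.632 with riluzole, against 10.384, 10.430 and 10.529 with vehicle. The groups met without overlap, and the log2 fold change was 0.14 (95% interval -0.08 to 0.37, adjusted p = 0.532). HLA-E and HLA-F had -0.059 and 0.10. B2M had levels of 14.999, 15.065 and 14.900 with riluzole, against 14.938, 14.944 and 15.141 with vehicle, and a log2 fold change of -0.019 (95% interval -0.27 to 0.23). Class I chains are close copies that vary between people, and whether each probe reads its own gene and this line's alleles was not tested.

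Peptides reach class I through the TAP transporter, the bridging protein TAPBP and the trimming enzymes ERAP1 and ERAP2, and 0 of these 5 genes passed or reached an unadjusted p under 0.05. TAP1 had levels of 11.997, 12.241 and 11.974 with riluzole, against 11.999, 11.885 and 11.905 with vehicle. Riluzole replicate 2 was the highest array, the groups overlapped, and the log2 fold change was 0.14 (adjusted p = 0.595). It was 0.057 without riluzole replicate 2. TAP2 had 0.14 as well, and TAPBP had -0.14 with groups that did not overlap (adjusted p = 0.544). All 3 kept probes of TAPBP were negative, the others at -0.33 and -0.13. ERAP1 and ERAP2 had 0.056 and 0.10, the ERAP2 probe being named LRAP on the array.

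The immunoproteasome subunits replace constitutive ones and favour peptides that fit class I. On their brightest probes they had log2 fold changes between -0.053 and -0.0071, and 0 of 3 passed. PSMB8 had levels of 10.66, 11.10 and 10.95 with riluzole, against 10.92, 10.87 and 10.94 with vehicle. The vehicle values lay inside the wider riluzole range (adjusted p = 0.989). Further kept PSMB8 probes gave -0.043, -0.011 and -0.33, the last from a dim probe (limma adjusted p = 0.336 over all probes). PSMB9 had levels of 9.57, 9.55 and 9.60 with riluzole, against 9.69, 9.55 and 9.54 with vehicle, and a 95% interval of -0.24 to 0.21. PSMB10 stood at -0.053 on the log2 scale (adjusted p = 0.853). NLRC5 had levels of 5.51, 5.76 and 6.19 with riluzole, against 5.57, 5.59 and 5.35 with vehicle. Riluzole replicate 3 stood above the others, the groups overlapped, and the log2 fold change of 0.32 (adjusted p = 0.428) comes from a probe detected on 3 of 6 arrays. It was 0.14 without background correction and 0.55 with the authors' processed values.

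**Figure D3:**
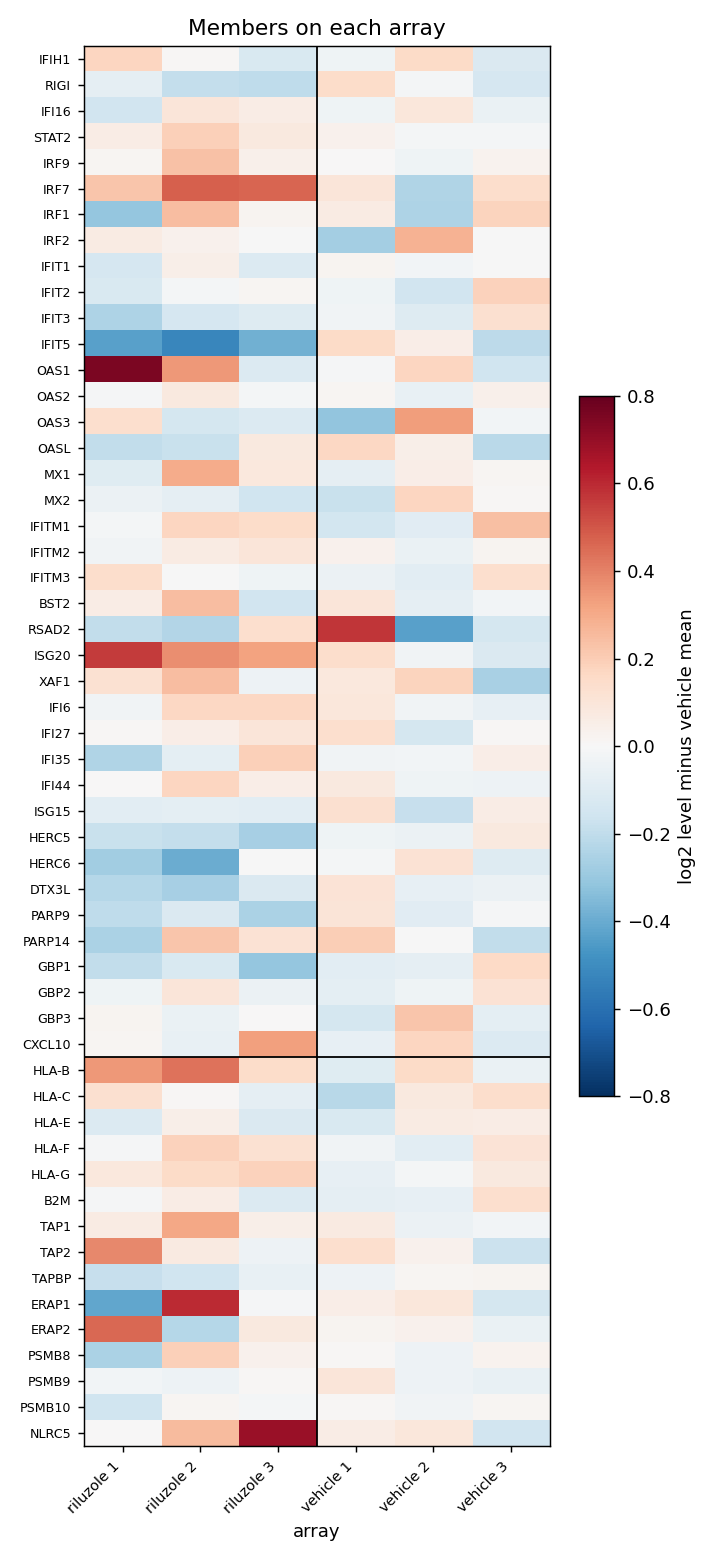
Log2 level of each of the 54 tested members (rows, the 39 antiviral targets above the line and the 15 class I genes below) on each array (columns, riluzole left and vehicle right), minus the gene's mean over the 3 vehicle arrays. Red is above and blue below that mean, and values run between -0.52 and 0.75. The riluzole columns hold both colours in the antiviral and in the class I rows, with 30 positive and 24 negative log2 fold changes.

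Set side by side, both parts of the member list centred close to 0. The antiviral targets had a median log2 fold change of 0.0070, with 21 positive and 18 negative of 39. The class I genes had a median of 0.056, with 9 positive and 6 negative of 15. All genes tested had a median of 0.00075, and 50.2% of them were positive. The median size of the change, regardless of sign, was 0.093 for antiviral targets and 0.10 for class I genes, beside 0.14 for all genes. The 2 medians differed by 0.049 log2 units, a description without a test, since genes are not replicates. Without riluzole replicate 1 the difference turned to -0.011.

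The mean level of the 39 antiviral targets was 9.66, 9.73 and 9.70 on the riluzole arrays, against 9.72, 9.69 and 9.69 on the vehicle arrays. The groups overlapped. The mean level of the 15 class I genes was 11.03, 11.13 and 11.07 on the riluzole arrays, against between 10.99 and 11.02 on the vehicle arrays. These did not overlap, by a narrow margin: 11.0272 on riluzole replicate 1 and 11.0225 on vehicle replicate 2. The group means differed by 0.069 log2 units. Riluzole replicate 2 gave the highest mean in both parts, and was the highest of the 6 arrays for 13 of 39 antiviral targets and 5 of 15 class I genes. Without it the antiviral median was -0.027 and the class I median 0.011, and without riluzole replicate 1 the class I median was 0.016.

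**Figure D4:**
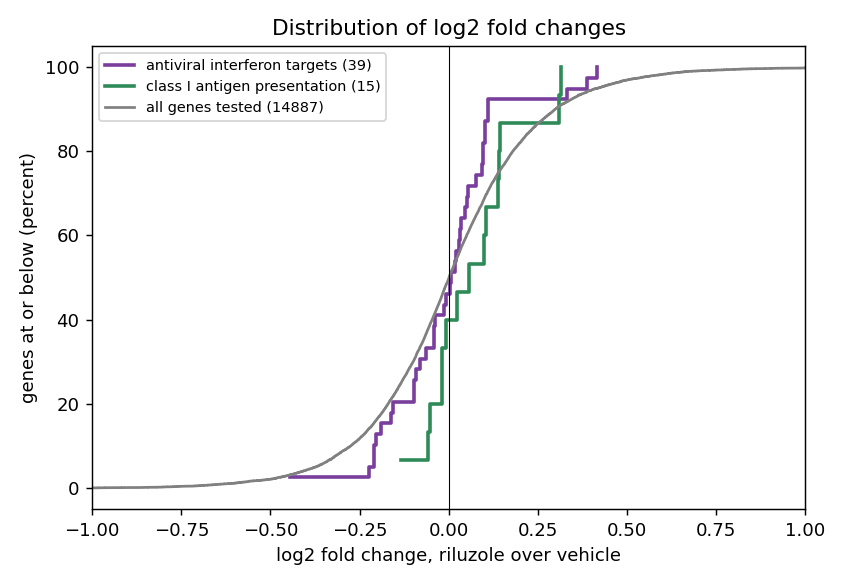
Cumulative percent of genes (y axis) at or below each log2 fold change, riluzole over vehicle (x axis), for 39 antiviral targets (purple), 15 class I genes (green) and all 14887 genes tested (grey). All curves cross 50% near 0, at medians of 0.0070, 0.056 and 0.00075.

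Several members were read by more than 1 probe. Of 88 probes for the members 77 were kept, 18 members had several kept probes, and of the 23 further probes 14 had the sign of the probe that stood for the gene and 9 the opposite. None of the 23 passed the threshold over all probes in the limma fit.

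Other genes of the pathway, taken from other lists, also gave no calls. Over 8 lists 61 of 76 genes were tested and 0 passed in the limma fit, with 7 (11.5%) at an unadjusted p under 0.05, beside 16.3% of all genes. Further interferon targets outside the member list had 13 of 16 log2 fold changes below 0, beside 49.8% of all genes, and a median of -0.15. Of these 16 genes 4 had an unadjusted p under 0.05 in the limma fit, 1 higher and 3 lower with riluzole, beside the same 16.3% of all genes. Class II genes and their regulators, which present antigen taken up from outside, were all tested, with a median of 0.053 over 8 genes. The constitutive proteasome and PA28 subunits had a median of -0.023 over 6 genes, and the loading chaperones one of 0.15 over 4.

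The markers of the line were mixed. VIM, CD44, AXL and CAV1, of mesenchymal-like breast cancer lines, were detected on all 6 arrays. ESR1, PGR and FOXA1, of luminal epithelium, were detected on none, while the luminal genes GATA3 and KRT19 were detected. KRT19 was bright, at mean raw signals of 10596 with riluzole and 13930 with vehicle, and GATA3 was dim, at 217 and 242. The log2 fold change was -0.34 for KRT19 and -0.24 for GATA3, and neither passed. Of 9 leukocyte markers, listed because leukocytes also express interferon targets, 2 were tested, CD14 and LYZ. CD14 was detected on all 6 arrays and stood at 0.21 on the log2 scale, with overlapping groups (adjusted p = 0.508). A second kept CD14 probe, dimmer and also detected on all 6 arrays, gave -0.020, so the sign differs between its probes. LYZ was detected on 0 riluzole arrays and 3 vehicle arrays, so only a bound can be given, at least 1.22-fold lower with riluzole. It met the detection rule through the vehicle arrays alone, so its limma adjusted p of 0.115 is no independent test of that difference. Another LYZ probe was detected on no array, with mean raw signals of 115 with riluzole and 109 with vehicle. MS4A1 was detected on 2 riluzole arrays and 0 vehicle arrays, and ITGAM on 0 riluzole arrays and 1 vehicle array. PTPRC, the pan-leukocyte antigen, and CD3E, NKG7, FCER1G and SPI1 were detected on none. The part of these markers in the members' values was not tested. Per array, 20516 to 20959 of the 47231 probes were detected, and arrays correlated at 0.992 to 0.994 across genes within groups and at 0.989 to 0.991 between them.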

How the data were processed

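The authors deposited one table of average bead signal intensity per probe, not background-subtracted or normalized between arrays per the file headers and its values, with a detection p-value beside each intensity. The deposited detection p-value is the rank of the probe among the 770 negative control probes. The sources used here name neither the scanner software nor the array type. The authors also deposited processed intensity values of the same arrays, by steps not stated, which served as an alternative.

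The intensities were background-corrected (neqc, offset 16), quantile-normalized and put on the log2 scale with limma 3.58.1 under R 4.3.3. A probe was kept if 3 or more of the 6 arrays gave it a detection p below 0.05 (20788 probes), and the brightest kept probe stood for a gene. Older array symbols were replaced by RefSeq's current ones (GRCh38.p14): of 43907 probes with 1 symbol, 27036 were current and 4626 renamed. The remaining 3324 of 47231 probes had no symbol. A linear model with treatment as its only term was fitted over all genes and adjusted by Benjamini-Hochberg at 0.05. The number of arrays, 3 per group, limits the precision.

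The members and lists were chosen with earlier results of these data known. Values per array are given for the 6 antiviral targets and 4 class I genes with the largest change and for 13 genes fixed whatever their values, 3 of them also among the largest, which makes 20. RIGI, DTX3L, PARP9, GBP1 and the values of the markers, CD14 and LYZ among them, were added after their values were seen. The alternatives were no background correction, median scaling, the authors' processed values, no detection filter, a stricter filter, an intensity trend with robust variance, array weights, a replicate block, averaging each gene's probes, and leaving out each array.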

Additional observations from a re-analysis of the deposited data

How the results depend on the processing

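Members past the threshold numbered 0 in the main analysis and in 13 of 15 alternatives, the 6 fits with an array left out among them. They numbered 1, ISG20, without background correction and 1, again ISG20, with an intensity trend and robust variance. Genes called over the whole table were 176 in the main analysis, 559 without background correction, 94 with the authors' processed values, 70 without a detection filter, 360 with detection p under 0.01 on all 6 arrays, 661 with an intensity trend and robust variance, 22 with the replicate block, and 21 to 41 with 1 array left out. With an array left out, the median log2 fold change ran from -0.027 to 0.027 for antiviral targets and from 0.011 to 0.080 for class I genes. The difference between these medians ran from -0.011 to 0.091. Log2 fold changes near 0 changed sign. With the mean of a gene's probes, B2M turned to 0.0094 and IFIT1 to 0.035, and with array weights HLA-C turned to -0.017 and PSMB8 to 0.019. With 1 array left out, values ran from -0.059 to 0.048 for B2M, -0.086 to 0.093 for HLA-C, -0.14 to 0.13 for IRF1, -0.0055 to 0.19 for MX1, -0.11 to 0.12 for PSMB8 and -0.046 to 0.030 for PSMB9. The cause of these changes was not tested. Deviations of samples with the same replicate number correlated at -0.15, -0.10 and 0.0011, and those with different numbers at -0.060 to 0.15. The mean of each group of 3 arrays was subtracted first, so these values cannot decide whether the numbers pair the samples. The replicate block left 0 members called. Signals near the negative controls limit NLRC5, RSAD2, USP18, IFI44L and CXCL11.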
